A study of Homo sapiens with 30 samples.

Results

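The zinc finger genes described here were the 247 protein-coding genes whose symbol is ZNF followed by a number and which lie on chromosome 19 in the study's exon annotation. They were looked up by Ensembl identifier in gene counts of 60664 genes, 19942 of them protein-coding, from 30 poly(A) RNA-seq libraries. Among the 247, 1 had no count in any library, and 246 had at least 1. They took 0.183% to 0.319% of the gene-assigned counts of a library.

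The libraries formed 10 groups of 3 cultures. Wild-type K562 cells, a chronic myeloid leukaemia line, and wild-type HCT116 cells, a colorectal carcinoma line, were each grown with a selective DNMT1 inhibitor (DNMT1i, 10 µM) for 3 days or with 0.1% DMSO. K562 cells in which both SON and SRRM2, scaffold proteins of nuclear speckles, carry a dTAG degron were grown with dTAG-13 (500 nM) for 6 hr or with DMSO. This line was made from single-cell clones, with the SRRM2 tag added to a SON-tagged clone, and both groups carry both tags. HCT116 cells whose CTCF alleles were both fused to a HaloTag, termed HT-CTCF cells and also derived from sorted clones, were grown with or without HaloPROTAC3, which sends HaloTag proteins for degradation, and with DNMT1i (10 µM) or DMSO for 1 day. HaloPROTAC3 was given some hours ahead of DNMT1i and kept on with it. All 4 HT-CTCF groups carry the tag. dTAG-13 and HaloPROTAC3 act on protein, so the messenger RNA of their targets does not check them.

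Most of these genes encode C2H2 zinc finger proteins, whose tandem fingers read DNA sequence. Many also carry a KRAB domain, which recruits the corepressor TRIM28 and, through it, the histone H3 lysine 9 methyltransferase SETDB1 and HP1 proteins. Many KRAB zinc finger proteins bind transposable elements. The family arose by repeated duplication and sits in clusters along chromosome 19, whose members share much sequence. DNMT1 copies CpG methylation onto newly made DNA, so blocking it lets methylation fall as cells divide, and methylated CpG-rich promoters are commonly silent.

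Promoter windows of the family held more CpG than RefSeq windows as a whole. RefSeq start sites (GRCh38.p14) gave a window of 300 bases, 250 before the start and 50 after it, for 216 of the 247 members. The median window of a member held 20 CpG, against 14 over all 35116 RefSeq windows, and 93.5% of members against 56.4% of all windows held 10 or more. The following 4 windows are shown because the first 3 belong to neighbouring genes of the most responsive cluster in HCT116 cells and the last to the gene with the largest response in K562 cells. CpG dinucleotides are in capitals and each sequence runs 5′ to 3′ on the strand of the gene, which is the plus strand for all 4.

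ZNF880 (chr19:52369673-52369972, 20 CpG): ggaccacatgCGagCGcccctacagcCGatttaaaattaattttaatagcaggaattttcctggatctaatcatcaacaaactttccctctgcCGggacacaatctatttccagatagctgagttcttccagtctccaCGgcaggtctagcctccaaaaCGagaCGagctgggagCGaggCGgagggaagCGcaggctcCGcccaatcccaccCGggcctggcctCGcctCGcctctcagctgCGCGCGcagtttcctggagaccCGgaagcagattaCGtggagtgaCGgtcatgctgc
ZNF528 (chr19:52397599-52397898, 27 CpG): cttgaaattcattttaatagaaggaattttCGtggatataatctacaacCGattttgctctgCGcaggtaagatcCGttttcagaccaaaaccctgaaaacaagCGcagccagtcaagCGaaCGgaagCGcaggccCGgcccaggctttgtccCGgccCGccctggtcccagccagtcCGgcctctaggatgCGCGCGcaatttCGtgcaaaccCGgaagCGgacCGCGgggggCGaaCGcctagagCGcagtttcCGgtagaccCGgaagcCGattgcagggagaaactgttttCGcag
ZNF534 (chr19:52428898-52429197, 20 CpG): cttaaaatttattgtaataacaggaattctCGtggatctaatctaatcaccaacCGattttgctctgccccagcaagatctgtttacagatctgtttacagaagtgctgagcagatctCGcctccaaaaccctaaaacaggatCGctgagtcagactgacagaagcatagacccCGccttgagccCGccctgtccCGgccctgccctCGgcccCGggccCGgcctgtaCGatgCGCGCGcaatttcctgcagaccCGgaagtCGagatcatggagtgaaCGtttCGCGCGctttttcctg
ZNF302 (chr19:34677428-34677727, 28 CpG): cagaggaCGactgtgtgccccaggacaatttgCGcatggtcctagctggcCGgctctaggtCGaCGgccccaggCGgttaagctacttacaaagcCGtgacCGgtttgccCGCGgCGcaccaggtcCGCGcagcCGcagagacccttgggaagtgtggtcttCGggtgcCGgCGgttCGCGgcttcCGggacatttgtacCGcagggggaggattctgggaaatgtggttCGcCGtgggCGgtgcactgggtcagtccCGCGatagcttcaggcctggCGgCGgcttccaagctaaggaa

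The longest run that the windows of ZNF880, ZNF528 and ZNF534 share is AGACCCGGAAG, 11 bases, which was found on either strand in 7 of 213 members matched by symbol (3.29%) and in 22 of 27167 genes (0.081%), using 1 window per gene. The run was taken from 3 of these 7 genes, which were chosen for their response in HCT116 cells, so neither share is a test of it. That run contains CCGGAAG, a CpG-holding form of the motif of ETS transcription factors, which 45.1% of members (96 of 213) and 10.6% of all genes held. Of these 96, 78 were tested in HCT116 cells, with 41 higher (52.6%) and 1 lower, and 70 in K562 cells, with 12 higher (17.1%). These shares are near those of all tested members given for each line (47.9% and 16.7%). The 27167 genes were not limited to protein-coding ones, so shares of members and of all genes are not like for like. These are matches of letters on both strands and not sites of binding.

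The depth behind the values was 16606855 to 20924381 gene-assigned counts in wild-type K562 libraries, 17074791 to 21228534 in wild-type HCT116 libraries, 16173008 to 20625817 in the SON and SRRM2 libraries and 4243092 to 9407430 in HT-CTCF libraries. Levels are given as CPM, a gene's count per 1000000 gene-assigned counts of its library. Of 9 erythroid markers, 8 were at 1 CPM or more in each K562-derived group and 2 in each HCT116-derived group, and of 8 colon epithelial markers 7 were in wild-type HCT116 groups, 6 in K562 DNMT1i and 4 in K562 DMSO. K562 DMSO replicate 3 stood apart among these genes, with a summed member level of 2605 CPM against 3163 and 3180 CPM in replicates 1 and 2. Tests are edgeR's quasi-likelihood test over all genes with Benjamini-Hochberg adjustment, and a gene was called higher or lower when its adjusted p was under 0.05 and it changed by over 0.5 on the log2 scale (0.25 for SON and SRRM2 depletion).

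To ask which of these genes respond to loss of DNMT1 activity, DNMT1i and DMSO cultures were compared within each line. In HCT116 cells 91 members were higher and 3 lower with DNMT1i, of 190 that passed the filter on low counts and 247 in all. Over all genes tested in HCT116 cells 23.6% were higher and 15.6% lower, so that the members, at 47.9% higher and 1.58% lower, lay above the first share and below the second. The shares were 23.3% higher and 10.6% lower among 236 tested ZNF genes of other chromosomes, and 23.6% and 15.9% among 804 other coding genes of chromosome 19. In bulk RNA, more cells expressing a gene and more RNA per cell cannot be told apart.

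The filter admits a gene that is high in one group only, so the libraries were also compared with no filter, a count added after the data were seen. Of 240 members with any count in HCT116 libraries, 156 (65.0%) were higher in all 3 DNMT1i libraries than in all 3 DMSO libraries, against 26.0% of all genes with a count, and 9 (3.75%) were lower in all 3, against 12.1%. The base of 35211 genes with a count includes noncoding genes and genes with few counts, so it is unlike the members. The unfiltered shares given below for other comparisons have the same kind of base. CPM were not TMM-scaled, and by library size only the median log2 fold change of all genes was 0.131 in HCT116 cells. With TMM it was 0.024. The summed level of the members was 2493 ± 61.0 CPM with DNMT1i and 1831 ± 4.6 CPM in DMSO (SD, n = 3 each). In HCT116 cells 8 members had no count with DNMT1i and 49 had none in DMSO.

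**Figure D1:**
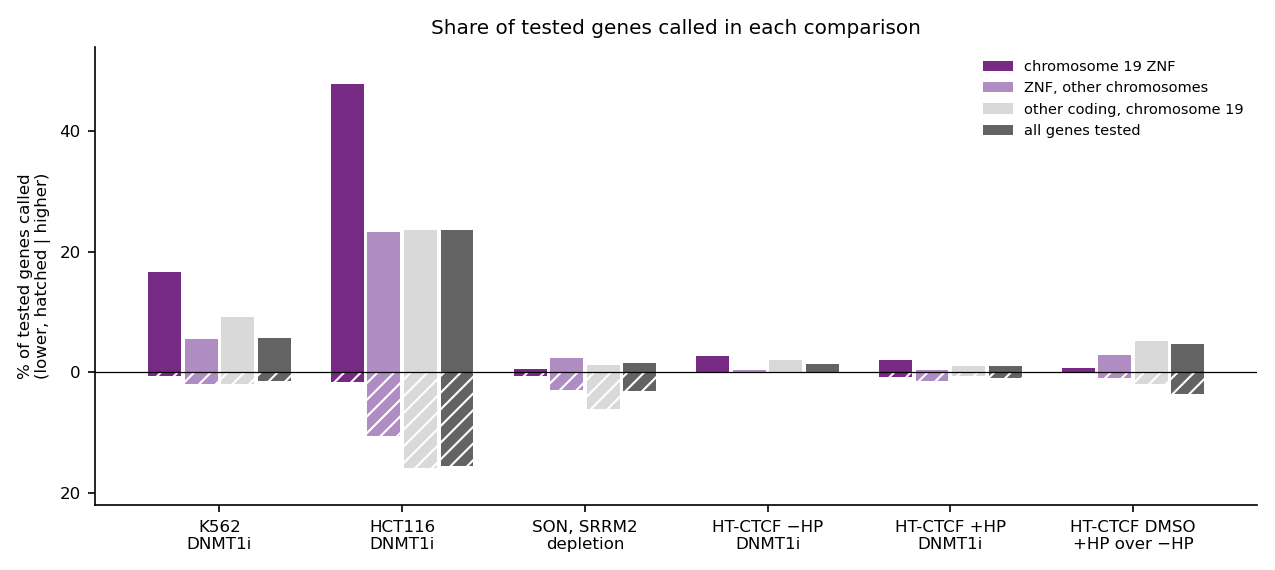
Percent of tested genes called higher (upward bars) and lower (downward hatched bars) in each comparison, for chromosome 19 ZNF genes, ZNF genes of other chromosomes, other coding genes of chromosome 19 and all genes tested, where HP is HaloPROTAC3. The chromosome 19 ZNF genes reach 47.9% higher with DNMT1i in HCT116 cells and 16.7% in K562 cells.

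The largest responses in HCT116 cells were of genes that DMSO cultures did not express at this depth. ZNF528 (chromosome 19, 52397849 to 52418412, plus strand, hg38) had 5.33, 4.52 and 5.72 CPM with DNMT1i and no count in any DMSO library. Its level was at least 92.4-fold higher, taking 3 counts over the DMSO group as the limit that a count of 0 allows. ZNF610 (at least 52.2-fold), ZNF404 (45), ZNF256 (40.2), ZNF415 (39.0) and ZNF331 (36.2), an imprinted gene, were also without a count in DMSO, and 16 of the 91 higher members were in all.

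ZNF560 (9466355 to 9498616, minus strand) had 14.2, 13.5 and 15.8 CPM with DNMT1i, against 0, 0.0535 and 0 CPM in DMSO. The ratio of these counts, 824 against 1, was 777 with a 95% interval of 139 to 30730 that covers counting error only. ZNF880 (52369917 to 52385795, plus strand) had 10.2, 9.33 and 9.99 CPM with DNMT1i and 0.0576, 0 and 0 CPM in DMSO, a ratio of 527 (94.2 to 20860). ZNF534 (52429148 to 52452315, plus strand), which binds HERV elements, had 6.74, 6.31 and 7.0 CPM with DNMT1i, against 0, 0 and 0.113 CPM in DMSO. DNMT1i libraries lay above every DMSO library for each of these genes.

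Other members rose from a measurable level. ZNF274, a KRAB zinc finger protein that binds the 3′ ends of zinc finger genes and recruits SETDB1 there, had 24.9, 26.1 and 28.0 CPM with DNMT1i and 8.99, 8.62 and 9.07 CPM in DMSO, a log2 fold change of 1.46 ± 0.10 (SE, adjusted p = 2.38e-10, edgeR). ZNF134 had 18.2, 20.7 and 19.4 CPM with DNMT1i and 8.70, 7.44 and 9.8 CPM in DMSO (1.06 on the log2 scale, adjusted p = 9.99e-08, edgeR). Over the 91 higher members the fitted log2 fold change was 0.5 to 1 in 33, 1 to 2 in 17, 2 to 4 in 7 and above 4 in 34, where fitted values over counts near 0 depend on the prior count. The median level of these members was 5.75 CPM with DNMT1i and 1.85 CPM in DMSO. The 96 tested members called neither way had medians of 8.97 and 7.59 CPM.

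The 3 lower members in HCT116 cells were ZNF358, ZNF580 and ZNF497, the last named after its values were seen. ZNF358 had 6.97, 8.95 and 5.72 CPM with DNMT1i, against 9.51, 9.8 and 13.2 CPM in DMSO (-0.69 on the log2 scale, adjusted p = 0.000694, edgeR). ZNF580 had 17.8, 23.6 and 18.2 CPM with DNMT1i and 25.7, 26.8 and 27.2 CPM in DMSO (-0.52, adjusted p = 0.000222, edgeR), and passed the size limit in the full set but not without DNMT1i replicate 1 (-0.47) or 3 (-0.46). ZNF497 averaged 0.297 CPM with DNMT1i and 0.985 CPM in DMSO.

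**Figure D2:**
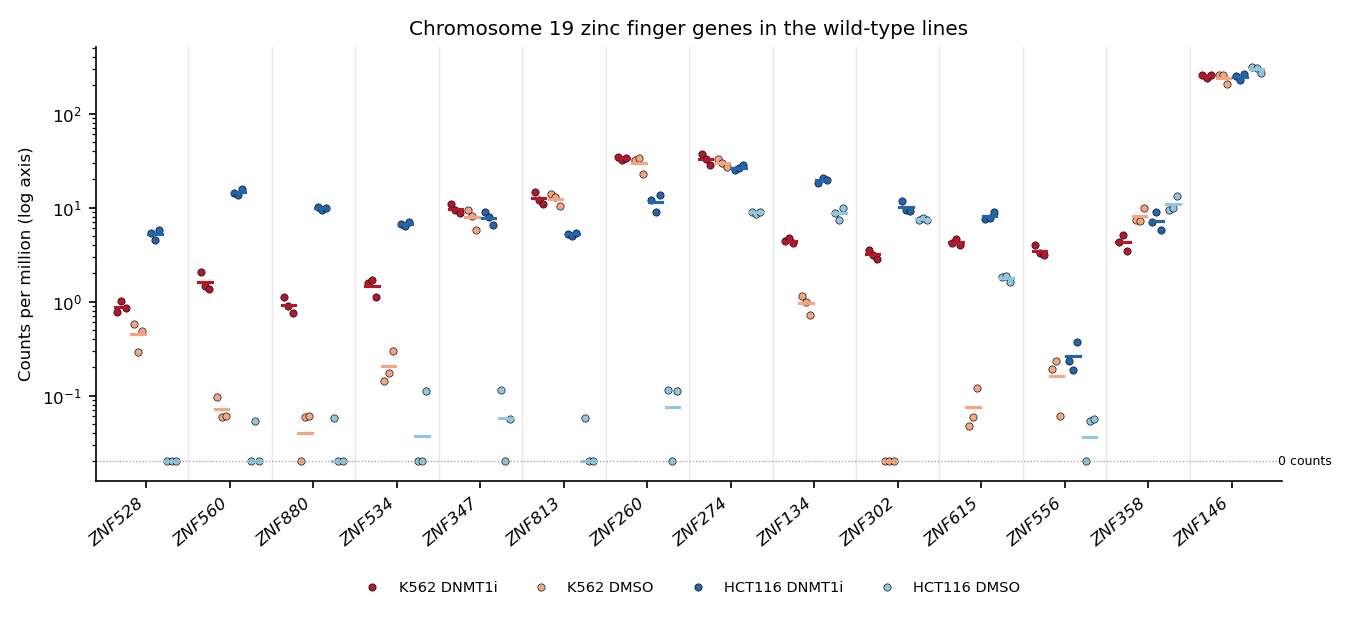
Level of 14 members in each wild-type library (points, CPM on a log axis, zeros on the dotted line) with group means (bars). ZNF528 has no count in any HCT116 DMSO library and 4.52 to 5.72 CPM in HCT116 DNMT1i libraries, and ZNF302 has none in any K562 DMSO library and 2.85 to 3.58 CPM in K562 DNMT1i libraries.

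The same comparison was made in K562 cells. Of 168 tested, 28 (16.7%) were higher and 1 was lower, against 5.72% higher and 1.44% lower over all 13726 genes tested. Without a filter, 71 of 242 members with a count (29.3%) were higher in all 3 DNMT1i libraries, against 11.3% of all genes, and 7 (2.89%) were lower, against 5.58%. The summed member level was 3054 ± 122 CPM with DNMT1i and 2983 ± 327 CPM in DMSO (SD, n = 3 each), so the 2 groups overlapped.

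ZNF302 (34677639 to 34686397, plus strand) had 3.58, 3.14 and 2.85 CPM with DNMT1i and no count in DMSO, at least 58.0-fold higher. ZNF615 had 4.24, 4.67 and 4.02 CPM with DNMT1i and 0.0478, 0.0586 and 0.120 CPM in DMSO. ZNF556 had 4.04, 3.25 and 3.10 CPM with DNMT1i, against 0.191, 0.234 and 0.0602 CPM in DMSO. The responses of ZNF615 and ZNF556 were 5.71 ± 0.33 and 4.30 ± 0.33 on the log2 scale (SE, adjusted p = 1.05e-06 and 9.49e-06, edgeR), and no library of either group overlapped the other.

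ZNF350, a partner of BRCA1 in repression, had 2.15, 1.83 and 1.73 CPM with DNMT1i and 0.239, 0.234 and 0.181 CPM in DMSO (3.04 ± 0.30 on the log2 scale, adjusted p = 6.62e-05, edgeR). ZNF93, which binds LINE-1 and SVA elements, had 2.71, 2.31 and 3.66 CPM with DNMT1i and 0.765, 0.645 and 1.02 CPM in DMSO (1.80 ± 0.28, adjusted p = 0.00189, edgeR). ZNF43 (2.73), ZNF134 (2.16) and ZNF559 (1.76) completed the 8 largest increases by log2 fold change among members of at least 1 CPM on average. ZNF559 shares reads with a read-through gene that joins it to ZNF177, so its counts are uncertain.

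The lower member in K562 cells was ZNF358, as in HCT116 cells, with 4.29, 5.15 and 3.46 CPM with DNMT1i and 7.31, 7.15 and 10.0 CPM in DMSO (-0.97 on the log2 scale, adjusted p = 0.00998, edgeR). Without DNMT1i replicate 3 this call was lost (adjusted p = 0.0539, edgeR), and without K562 DMSO replicate 3, the library that stood apart, 7 members were lower in place of 1. The number of higher members was 28 when the K562 libraries were fitted alone and 43 when fitted with the HCT116 libraries, a set that held all 28. Erythroid markers moved in the same cultures, with a summed level of 1195 to 1369 CPM in DNMT1i libraries and 1695 to 1754 CPM in DMSO libraries and 8 of 9 markers at 1 CPM or more in both, and their part in the result was not tested.

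The 2 lines were then compared directly. Of the 28 members higher in K562 cells, 21 (75.0%) were also higher in HCT116 cells, where they were 23.1% of the 91. In HCT116 cells 47.9% of all tested members and 23.6% of all genes were higher. The overlap between lines over all genes was not counted, so the 75.0% is not shown to be particular to these genes. ZNF132 and ZNF677, both known for promoter methylation in tumours, were called higher in both lines. With 3 counts or fewer over each DMSO group, the difference of their responses could not be estimated with any precision. ZNF132 averaged 1.20 CPM in K562 DNMT1i cultures and 0.0201 CPM in K562 DMSO, and 1.67 CPM in HCT116 DNMT1i cultures and 0.0384 CPM in HCT116 DMSO. ZNF677 had 1.07, 1.36 and 1.12 CPM with DNMT1i in K562 cells and 4.04, 3.77 and 3.63 CPM with DNMT1i in HCT116 cells, against at most 0.0576 CPM in any DMSO library of the 2 lines.

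The difference of the responses, K562 minus HCT116, was tested as an interaction term with no size limit. It was positive in 16 and negative in 59 of 203 members tested (7.88% and 29.1%), against 14.1% and 15.7% of all genes. For 4 of the 203 (ZNF256, ZNF285, ZNF570 and ZNF836) neither line had a count in DMSO, so that no difference could be estimated, and they are among those not called. Of the 70 members higher in HCT116 cells and not called higher in K562 cells, 41 had a negative difference at an adjusted p below 0.05, 24 were not tested in K562 cells alone and 46 were called neither way there. Of the 7 called higher in K562 cells and not in HCT116 cells, 4 had a positive difference at that threshold, 2 (ZNF556 and ZNF93) were not tested in HCT116 cells alone and 5 were called neither way there. The 70 and the 7 were chosen by calls on these same libraries, which favours a difference of that sign. The counts of 41 and 4 are therefore no test of a difference between the lines. ZNF556 had 15 counts in HCT116 DNMT1i libraries and 2 in HCT116 DMSO libraries, and ZNF93 had 8 in HCT116 DNMT1i libraries and 0 in HCT116 DMSO libraries.

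The 6 members with the smallest p for the difference were ZNF260, ZNF813, ZNF841, ZNF347 and ZNF432, which responded in HCT116 cells, and ZNF302, which responded in K562 cells. ZNF347 had 9.02, 8.01 and 6.46 CPM in HCT116 DNMT1i cultures and 0.115, 0 and 0.0564 CPM in HCT116 DMSO, whereas in K562 cells it had 10.8, 9.47 and 8.75 CPM with DNMT1i and 9.51, 8.21 and 5.84 CPM in DMSO. ZNF260 had 12.1, 9.0 and 13.5 CPM with DNMT1i and 0.115, 0 and 0.113 CPM in DMSO in HCT116 cells, and 22.9 to 34.7 CPM in every K562 library. ZNF432 had 6.97 to 8.44 CPM in HCT116 DNMT1i libraries and 0.564 to 1.12 CPM in HCT116 DMSO libraries.

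**Figure D3:**
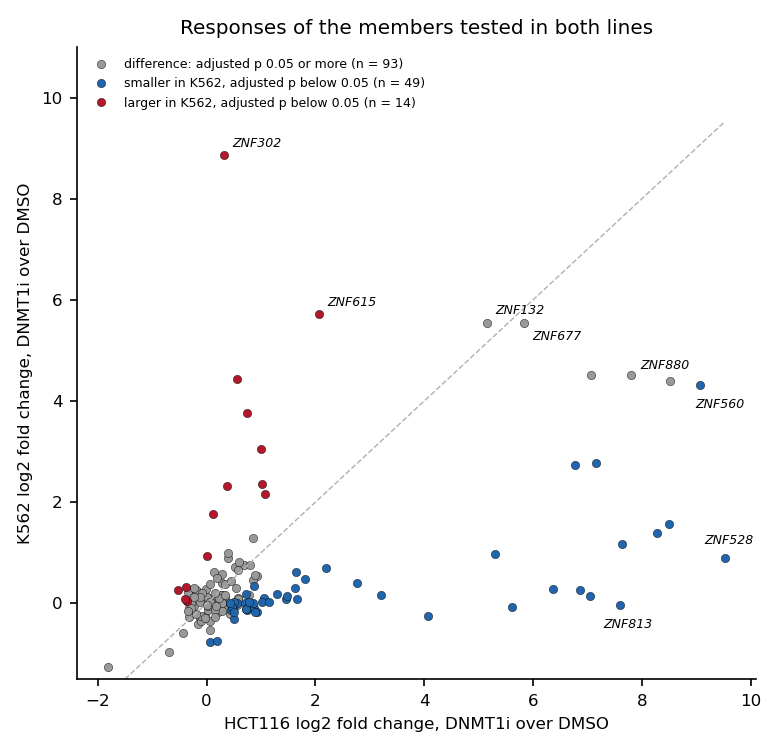
Fitted log2 fold change, DNMT1i over DMSO, in K562 cells (vertical) against HCT116 cells (horizontal) for the 156 members tested in both lines, coloured by the test of the difference. ZNF302 lies far up at 8.86 in K562 cells, and 49 members lie where the response was smaller in K562 cells at an adjusted p below 0.05.

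The lines also differed at baseline. In DMSO 79 members were higher and 57 lower in K562 cells than in HCT116 cells, of 203 tested (38.9% and 28.1%, against 31.0% and 34.5% of all genes). ZNF429 averaged 78.7 ± 18.7 CPM in K562 DMSO and 0.111 ± 0.052 CPM in HCT116 DMSO (SD, n = 3 each). ZNF681 averaged 61.3 ± 12.1 CPM in K562 DMSO and 0.114 ± 0.099 CPM in HCT116 DMSO, and ZNF529 23.9 ± 5.7 CPM in K562 DMSO and 0.038 ± 0.033 CPM in HCT116 DMSO. In the other direction, ZNF264 averaged 0.0993 ± 0.092 CPM in K562 DMSO and 37.0 ± 3.9 CPM in HCT116 DMSO, and ZNF302 and ZNF527 had no count in K562 DMSO against 7.56 and 2.11 CPM in HCT116 DMSO.

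With levels of under 0.1 CPM in one line and 1 CPM or more in the other taken as a view of this (limits chosen after the values were seen), 10 members were low in HCT116 DMSO and expressed in K562 DMSO. In HCT116 DNMT1i cultures 6 of them were called higher, at 6.96% (ZNF253) to 99.7% (ZNF347) of the K562 DMSO level, and the other 4 did not pass the filter, which such genes pass only through DNMT1i libraries. The median over the 10 was 11.7%. ZNF626, at 5.30 CPM in K562 DMSO, averaged 0.0195 CPM in HCT116 DNMT1i cultures and 0.0178 CPM in HCT116 DMSO. The reverse set, low in K562 DMSO and expressed in HCT116 DMSO, had 11 members, of which 4 were called higher with DNMT1i in K562 cells and 7 did not pass the filter. The median over the 11 was 4.04% of the HCT116 DMSO level. ZNF302 reached 42.1% and ZNF615 242% of the HCT116 DMSO level, while ZNF264 reached 3.69%. Another 76 members were low in HCT116 DMSO and under 1 CPM in K562 DMSO, of which 28 were called higher in HCT116 cells and 48 did not pass the filter. In K562 cells the matching set had 59 members, with 6 called higher and 53 not past the filter. These counts rest on the filter and were not made over all genes, so they do not compare one set with another.

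The response was uneven along the chromosome. Members were split where neighbours lie over 1 Mb apart, which gave 16 groups. Group 15 (51.6 to 53.6 Mb) has 39 members, of which 38 were tested in HCT116 cells and 28 were higher, with a median log2 fold change of 0.96. ZNF880, ZNF528, ZNF534, ZNF610, ZNF347, ZNF813 and ZNF841 are among them. Group 12 (43.5 to 45.1 Mb) had 11 higher of 22 tested, group 16 (55.5 to 58.5 Mb) 26 higher and 2 lower of 52, and group 9 (36.2 to 37.8 Mb) 10 higher of 17. Group 5 (19.7 to 24.1 Mb), with 37 members, had 6 higher of 17, and group 3 (11.5 to 12.6 Mb), with 25 members, had 3 higher of 12.

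The number of other coding genes inside these clusters varied. Group 15 held 3 other tested coding genes, 2 of them higher in HCT116 cells, and group 12 held 19, with 4 higher and 4 lower. Group 16 held 21, with 13 higher and 2 lower. Group 2 (7.1 to 9.8 Mb), with 5 members higher and 1 lower of 14 tested, held 32 other tested coding genes. Of these 32, 4 were higher and 11 lower in HCT116 cells. In K562 cells the higher members were 8 of 34 tested in group 15, 6 of 16 in group 12, 5 of 43 in group 16, 4 of 21 in group 5, and none of 9 in group 9 or of 13 in group 3. No test between groups of neighbours was made, since neighbours share sequence and are not independent.

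**Figure D4:**
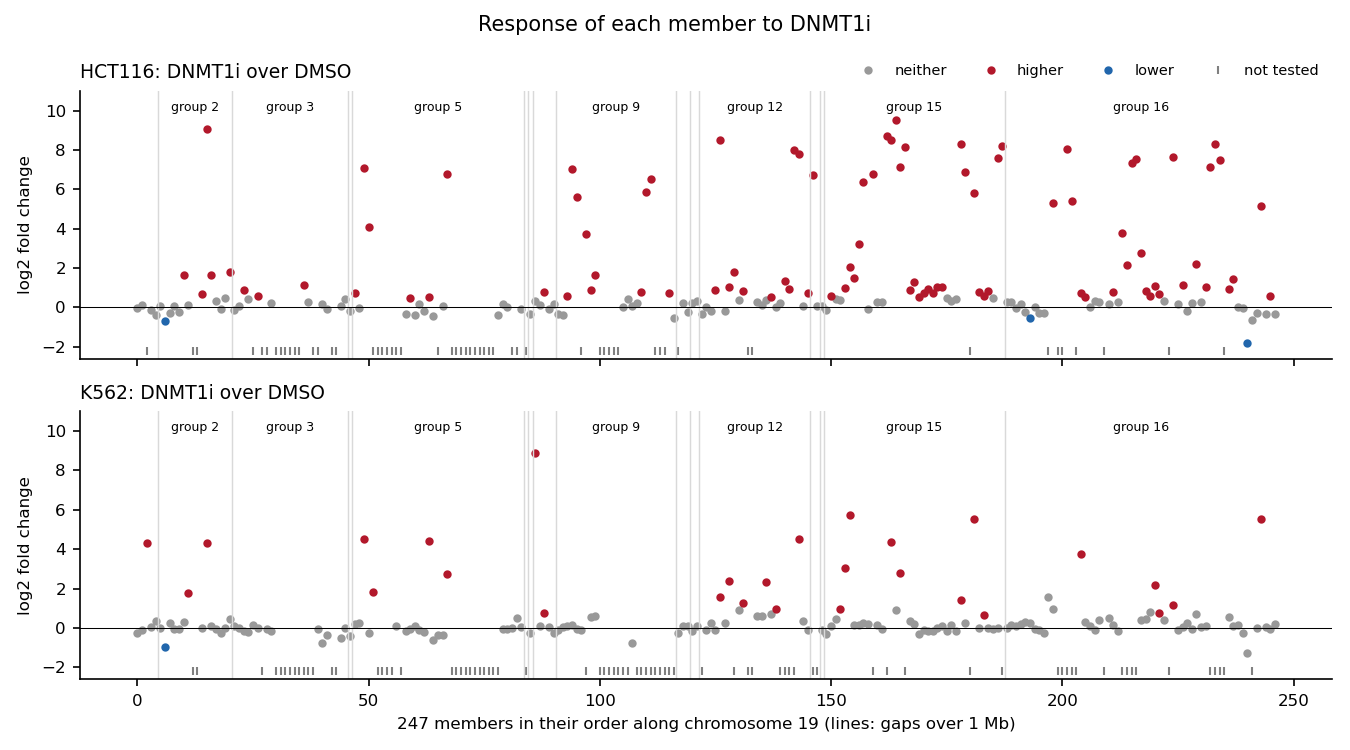
Fitted log2 fold change of each member with DNMT1i, in order along chromosome 19, in HCT116 cells (top) and K562 cells (bottom), coloured by call, with ticks for members not tested and lines at gaps over 1 Mb. Group 15 has 28 higher members in HCT116 cells and 8 in K562 cells.

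Responses were also set against the number of CpG in the promoter window. Across members the Spearman correlation of CpG number with log2 fold change was -0.05 in HCT116 cells (170 members) and -0.06 in K562 cells (152 members), as a description over genes that share sequence and libraries. In 3 bins of equal size from low to high CpG number, 41.9%, 53% and 44.3% of tested members were higher in HCT116 cells and 15.9%, 26.4% and 3.6% in K562 cells. In HCT116 cells the median was 21 CpG in members called higher, 20 in those called neither way and 15 in those not tested. It was 34 in the 3 lower members. In K562 cells it was 20 in members called higher, 22 in those called neither way and 17.5 in those not tested.

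Of 11 members known for promoter methylation in tumours, 4 passed the filter in HCT116 cells, ZNF132, ZNF331, ZNF671 and ZNF677, each with 0 to 3 counts over the DMSO libraries. They passed through their DNMT1i libraries, so that all 4 being called higher was fixed by the filter. ZNF671 had 1.35, 1.65 and 1.12 CPM with DNMT1i and no count in DMSO, at least 24.8-fold higher. In K562 cells 5 were tested and 3 were higher, ZNF132, ZNF671 and ZNF677, where 16.7% of all tested members and 5.72% of all genes were. ZNF132 and ZNF677 had 1 count each over the K562 DMSO libraries and passed the filter through DNMT1i libraries, so their calls were fixed by it too. ZNF582 (1.58, adjusted p = 0.0762) and ZNF382 (-0.12, adjusted p = 0.862) were not past the edgeR threshold. ZNF671 had 1.74, 2.13 and 1.98 CPM with DNMT1i and 0.908, 0.762 and 0.843 CPM in DMSO in K562 cells, and the difference of its responses, K562 minus HCT116, was -6.45 on the log2 scale (adjusted p = 5.33e-05, edgeR), a value that depends on the prior count because HCT116 DMSO libraries were at 0.

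Of 5 members known to bind SVA, LINE-1 or HERV elements, 4 were tested in HCT116 cells, where ZNF534 and ZNF765 were higher. All 5 were tested in K562 cells, where ZNF534 and ZNF93 were higher. Among all tested members 47.9% were higher in HCT116 cells and 16.7% in K562 cells. ZNF534 had 2 counts over HCT116 DMSO libraries and passed the filter there through DNMT1i libraries. ZNF93 was not tested in HCT116 cells. ZNF649 was called in neither line (0.45 in each, adjusted p = 0.0115 in HCT116 and 0.0949 in K562 cells, edgeR). ZNF765 had 26.5, 22.1 and 26.2 CPM with DNMT1i and 13.9, 12.3 and 12.5 CPM in DMSO in HCT116 cells (0.85 on the log2 scale, adjusted p = 1.44e-06, edgeR). ZNF91, which binds SVA elements, had 10.7, 9.47 and 11.2 CPM with DNMT1i and 8.19, 9.05 and 8.57 CPM in DMSO there, and did not pass the test (0.17, adjusted p = 0.237, edgeR). ZNF274 did not pass in K562 cells, at 36.9, 32.5 and 28.3 CPM with DNMT1i and 32.5, 29.7 and 27.1 CPM in DMSO (0.09, adjusted p = 0.694, edgeR). ZNF350 was higher in both lines, ZNF224 (a WT1 partner) and ZNF304 in neither, and ZNF420 (a p53 partner) was not tested.

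Genes of the KRAB corepressor and heterochromatin machinery, most of them on other chromosomes, were taken as a list of 16. In HCT116 cells 5 were higher (31.2%) and 2 lower (12.5%), against 23.6% and 15.6% of all genes. Those with the smallest p were MORC2 (0.66), CBX3 (0.59), CHD3 (-0.58) and CBX5 (-0.52, an HP1 gene). TRIM28 had 326.5, 398.8 and 332.7 CPM with DNMT1i and 421.9, 384.0 and 500.3 CPM in DMSO (-0.41, adjusted p = 0.000465, edgeR) and SETDB1 was at -0.41 (adjusted p = 0.000364, edgeR), both under the size limit. In K562 cells none of the 16 was called (TRIM28 -0.10, SETDB1 -0.08), 1 of them had an adjusted p below 0.05 by edgeR, CBX5 (-0.40, adjusted p = 0.0299), and it was under the size limit. Scaling bears on values of this size, since the median of all genes in HCT116 cells was 0.024 with TMM scaling and 0.131 by library size only.

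To ask what acute loss of nuclear speckles does, the dTAG-13 cultures were compared with DMSO. Of 169 members tested, 1 was higher, ZNF69, and 1 was lower, ZNF146, against 1.56% higher and 3.07% lower of all genes. ZNF69 had 2.88, 3.84 and 3.44 CPM with dTAG-13, against 2.20, 2.10 and 1.75 CPM in DMSO (0.75 ± 0.18 on the log2 scale, adjusted p = 0.0449, edgeR). ZNF146, a protein of zinc fingers with no KRAB domain, had 298.6, 285.1 and 264.4 CPM with dTAG-13, against 334.3, 357.7 and 326.9 CPM in DMSO (-0.27 ± 0.06, adjusted p = 0.0404, edgeR). Leaving out any 1 library ended the call of ZNF146 (adjusted p from 0.0463, where the change fell under the size limit, to 0.174, edgeR), and the call of ZNF69 was lost without each library but dTAG-13 replicate 3.

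The labels of these 6 libraries give replicate numbers but state no pairing. Deviations of same-numbered libraries correlated at 0.185, 0.471 and 0.77, so the number was also put in the fit. In that fit 11 members were higher and 3 lower, against 5.93% and 7.87% of all genes. These counts, of 169, were near the share of all genes for higher and below it for lower. The higher members added were ZNF226, ZNF324, ZNF324B, ZNF428, ZNF548, ZNF587B, ZNF787, ZNF792, ZNF841 and ZNF865, at 0.26 to 0.57 on the log2 scale, and the lower ones ZNF414 (-0.43) and ZNF580 (-0.45). In the unpaired fit these had adjusted p from 0.0574 to 0.467. With the replicate number in the fit, ZNF69 was at 0.75 (adjusted p = 0.00359, edgeR) and ZNF146 at -0.27 (adjusted p = 8.73e-05, edgeR). Single libraries were left out only of the unpaired fit. Without a filter, 23 of 245 members (9.39%) were higher in all 3 dTAG-13 libraries, against 7.24% of all genes, and 10 (4.08%) were lower, against 6.53%. The summed member level was 3008 ± 116 CPM with dTAG-13 and 3071 ± 114 CPM in DMSO (SD, n = 3 each).

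TRIM28 fell with dTAG-13, at 357.7, 380.8 and 392.0 CPM against 467.5, 439.6 and 488.4 CPM in DMSO (-0.30 on the log2 scale, adjusted p = 0.0267, edgeR), and was the only called gene of the 16 corepressor genes there. Of 70 members under 0.1 CPM in wild-type K562 DMSO, 47 were also under 0.1 CPM in DMSO cultures of this K562-derived line and 8 were at 1 CPM or more. ZNF302 had 0, 0 and 0.0485 CPM with dTAG-13 and 0, 0.124 and 0.0604 CPM in DMSO. No test was made for it because it did not pass the filter.

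To ask whether the DNMT1i response needs CTCF, HT-CTCF cells were given DNMT1i for 1 day with and without HaloPROTAC3. Of 144 members tested, 4 were higher and none lower with DNMT1i without HaloPROTAC3 (1.34% and 0.158% of all genes), and 3 were higher and 1 lower with it (1.08% and 0.875%). ZNF134 was higher in both. It had 13.8, 14.8 and 17.6 CPM with DNMT1i and 8.91, 9.89 and 8.27 CPM in DMSO with HaloPROTAC3 (0.82 ± 0.15 on the log2 scale, adjusted p = 0.000957, edgeR), and 18, 19.9 and 22.4 CPM with DNMT1i and 10.1, 9.8 and 10.2 CPM in DMSO without it (0.99 ± 0.16, adjusted p = 0.000174, edgeR).

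ZNF274 was higher without HaloPROTAC3, with 12, 11.2 and 11.1 CPM in DNMT1i cultures and 4.72, 6.12 and 6.25 CPM in DMSO cultures (1.01 ± 0.19, adjusted p = 0.00193, edgeR). With HaloPROTAC3 it had 9.72, 12.6 and 9.25 CPM in DNMT1i cultures and 7.59, 6.91 and 7.97 CPM in DMSO cultures and was not called, though it was without DMSO replicate 1 of the cells not given HaloPROTAC3 (0.52, adjusted p = 0.0487, edgeR). ZNF550 had 1.93, 2.56 and 2.36 CPM with DNMT1i and 0.215, 0.525 and 0.208 CPM in DMSO without HaloPROTAC3 (2.7 ± 0.54, adjusted p = 0.0033, edgeR), and ZNF426 rose there too (2.44 ± 0.58, adjusted p = 0.0167, edgeR), though not without DNMT1i replicate 2 (adjusted p = 0.0976) or DMSO replicate 2 (adjusted p = 0.115). With HaloPROTAC3, ZNF701 (0.77) and ZNF440 (0.53) were higher and ZNF875 (-0.89) lower, and each of these calls was lost without 1 or more single libraries.

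The difference of the 2 responses, with minus without HaloPROTAC3, passed the threshold in no member by edgeR, against 0.0552% of all genes with a positive and 0.213% with a negative difference. An unadjusted p below 0.05 by edgeR was found for 7 of 144 members, against 1788 of all 12690 genes tested. By DESeq2 the count was also 0. The smallest p among members was that of ZNF611 (-0.73 ± 0.26, adjusted p = 0.191, edgeR). The difference for ZNF550 was -1.92 ± 0.74 (adjusted p = 0.236, edgeR).

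HaloPROTAC3 alone raised ZNF283 and no other member in DMSO cultures, and none fell, against 4.67% higher and 3.54% lower of all genes. ZNF283 had 13.0, 13.9 and 15.3 CPM with HaloPROTAC3 and 9.01, 7.52 and 9.8 CPM without it (0.75 ± 0.17, adjusted p = 0.00179, edgeR). Of the 16 corepressor genes, CHD3 was higher (0.59, adjusted p = 7.13e-06, edgeR). The DNMT1i and HaloPROTAC3 comparisons share their DMSO libraries.

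**Figure D5:**
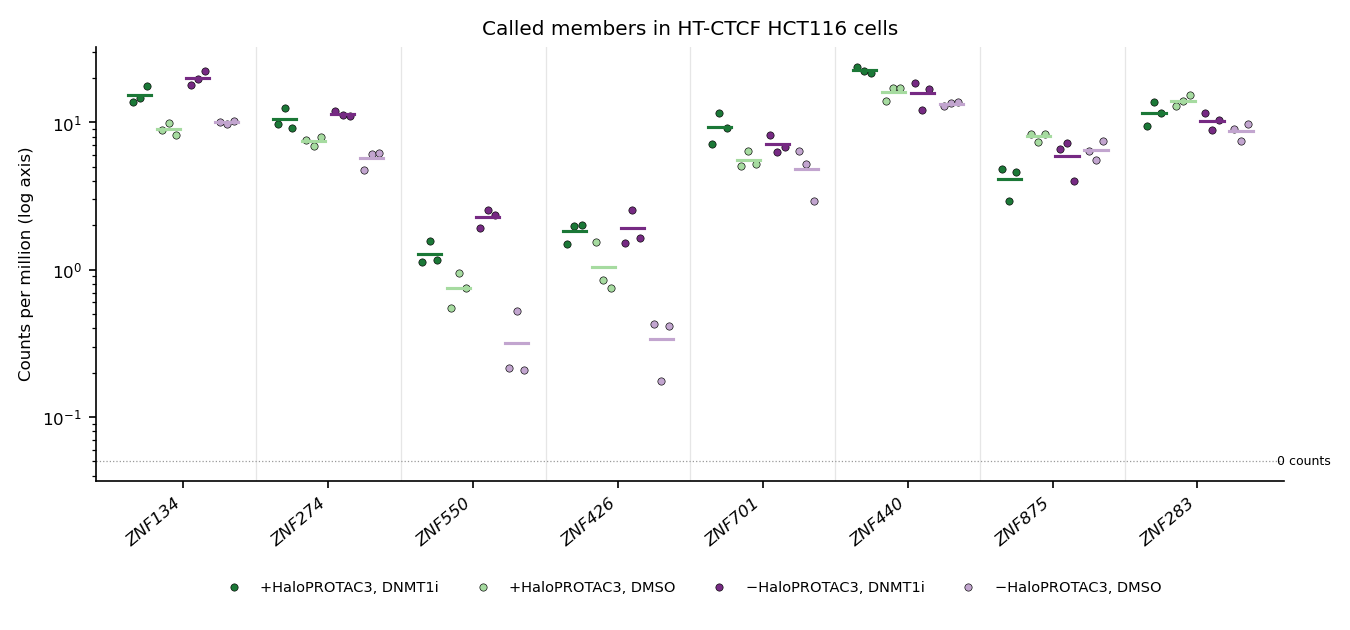
Level of the 8 members called in any HT-CTCF comparison in each library (points, CPM on a log axis) with group means (bars). ZNF134 lies at 13.8 CPM or more in every DNMT1i library and at 10.2 CPM or less in every DMSO library, with and without HaloPROTAC3.

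The 91 members that were higher after 3 days in wild-type HCT116 cells were then read in the HT-CTCF cells after 1 day. The times and cells differ, so the values are given side by side. Without HaloPROTAC3 50 of the 91 were tested, 4 were higher and 34 had a positive log2 fold change, with a median of 0.17. With HaloPROTAC3 3 were higher and 37 were positive, with a median of 0.22. Positive changes without HaloPROTAC3 were found in 93 of all 144 tested members. They were found in 6295 of all 12690 genes and 510 of 680 other coding genes of chromosome 19. With HaloPROTAC3 these counts were 90, 6605 and 322. Over the 92 tested members called neither way in wild-type HCT116 cells the medians were 0.06 without and 0.02 with HaloPROTAC3. ZNF528, silent in wild-type HCT116 DMSO, had 0, 0.197 and 0 CPM with DNMT1i and 0.11, 0 and 0 CPM in DMSO with HaloPROTAC3, and 0, 0 and 0.236 CPM with DNMT1i and 0.429, 0 and 0 CPM in DMSO without it.

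Among all members ZNF146 had the highest level per length in each of the 10 groups. Per kilobase of exon it averaged 60.9 ± 2.6 CPM in K562 DNMT1i and 58.0 ± 6.6 CPM in K562 DMSO, and 59.6 ± 4.6 CPM in HCT116 DNMT1i and 71.4 ± 6.0 CPM in HCT116 DMSO (SD, n = 3 each). The median member level was 2.94 CPM in K562 DNMT1i and 1.97 CPM in K562 DMSO, and 4.90 CPM in HCT116 DNMT1i and 2.41 CPM in HCT116 DMSO. In HCT116 cells 181 members were at 1 CPM or more with DNMT1i and 147 in DMSO, and in K562 cells 157 with DNMT1i and 136 in DMSO.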

How the data were processed

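Poly(A) RNA from 30 cultures was sequenced. The deposited counts are whole-number reads per gene, made by the authors with UMI-tools 1.1.1, cutadapt 2.7, STAR 2.6.0 and HTSeq on hg38 with Ensembl release 104 (tools per the labels and the study's methods). No source used here gives the strand setting of the counting. Reads that map to several places were not counted, so members with near-identical copies are uncertain. The deposited fold changes, p-values and 18 deposited per-sample columns of exon counts were not used, and the chromosome of each gene came from a deposited exon table. Reads not assigned to a gene (17.1% to 23.6% of a library) stayed out of the totals.

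Each comparison was fitted over all genes with edgeR 4.0.16 (R 4.3.3) by the quasi-likelihood F test, with TMM scaling, the default filter on low counts and Benjamini-Hochberg adjustment. The 2 wild-type responses and SON and SRRM2 depletion were fitted on their 6 libraries, HT-CTCF comparisons on 12 libraries, and the comparisons of the 2 lines on 12. Standard errors are the fold change divided by the root of F. CPM are plain, without TMM factors. Confidence intervals of count ratios are 95% exact binomial and, like the limit of 3 counts over a group at 0, cover counting error only. The script was tested on simulated data. Alternatives were DESeq2 1.42.0, its size factors, other filters, a replicate block, no size limit, other sets of libraries and leaving out each library.

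Named members were the 8 largest increases and decreases among called members at 0 or more mean log2 CPM whose groups did not overlap, the 6 smallest p of each interaction, and the members of 3 lists (tumour-methylated, transposon-binding, single roles), with up to 4 corepressor genes per comparison and TRIM28 and SETDB1. The members and lists were chosen with earlier results of these data known. The replicate numbers were checked by correlating the deviations of same-numbered libraries. In the SON and SRRM2 libraries these were 0.185, 0.471 and 0.77, all above 0.1. Of the 3 dTAG-13 libraries, 2 correlated best with the DMSO library of their own number. The labels state no pairing, so a pairing of these libraries is inferred and not certain. Positions are from GENCODE 44. Protein sequences were not analysed here. Replicates differed beyond sampling noise (chi-square per degree of freedom of 1.74 or more), and p-values measure the spread between cultures of 1 line.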

Additional observations from a re-analysis of the deposited data

Results flagged for a closer look

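The 6 members flagged here had the smallest p for the difference of DNMT1i responses in the edgeR fit, which is what singled them out. They are part of the 16 members with a positive and 59 with a negative difference at an adjusted p below 0.05, of 203 tested. On the log2 scale the K562 response minus the HCT116 response was -6.89 for ZNF260, -7.61 for ZNF813, -6.09 for ZNF841, -6.60 for ZNF347 and -3.04 for ZNF432, and 8.57 for ZNF302. ZNF813 had 5.27, 5.04 and 5.34 CPM with DNMT1i and 0.0576, 0 and 0 CPM in DMSO in HCT116 cells, and 14.7, 12 and 11 CPM with DNMT1i and 14, 12.9 and 10.5 CPM in DMSO in K562 cells. The values for ZNF302, ZNF813, ZNF260, ZNF347 and ZNF841 depend on the prior count, because a DMSO group held between 0 and 4 counts in all.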

How the results depend on the processing

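In K562 cells 45 members were higher with no low-count filter and 43 with all 12 wild-type libraries in the fit, against 28, and 5, 6 and 2 were lower with no filter, with 12 libraries and with no size limit, against 1. With no size limit 10 were lower in HCT116 cells, against 3. For SON and SRRM2 depletion, DESeq2 size factors and the DESeq2 Wald test each gave 2 lower, the Wald test 0 higher, no filter 2 higher and the replicate block 11 higher and 3 lower. In HT-CTCF cells a fit on 6 libraries gave 2 higher with DNMT1i without HaloPROTAC3, and the Wald test gave 0 lower with HaloPROTAC3. HaloPROTAC3 in DMSO gave 2 higher with no filter, 2 on 6 libraries and 3 with no size limit. Why these counts moved was not tested. Elsewhere same-numbered libraries did not all correlate above 0.1, and the block gave 25 higher and 1 lower in K562 cells and 90 and 4 in HCT116 cells.

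Leaving out 1 library gave 21 to 33 higher and 0 to 7 lower in K562 cells, 87 to 93 and 3 to 4 in HCT116 cells, 0 to 3 and 0 to 2 with dTAG-13, 1 to 4 and 0 to 2 with HaloPROTAC3, and 1 to 3 higher for HaloPROTAC3 in DMSO. The direction of single members was followed only for those named in each comparison, and no called one among them changed direction. Uncalled members among them did so on the log2 scale. In K562 cells ZNF382 ran from -0.33 to 0.13, ZNF91 from -0.22 to 0.052 and ZNF765 from -0.054 to 0.051. With dTAG-13 ZNF582 ran from -0.08 to 0.31, ZNF91 from -0.017 to 0.12, ZNF765 from -0.087 to 0.041, ZNF350 from -0.12 to 0.18, ZNF224 from -0.15 to 0.011 and ZNF420 from -0.11 to 0.049. Without HaloPROTAC3 ZNF224 ran from -0.049 to 0.24 and ZNF304 from -0.17 to 0.080, and for the HaloPROTAC3 difference ZNF224 from -0.11 to 0.18 and ZNF350 from -0.20 to 0.47. Between the lines in DMSO ZNF649 ran from -0.25 to 0.040 and ZNF132 from -2.75 to 1.92, and for the difference of responses ZNF649 from -0.13 to 0.15, ZNF132 from -2.35 to 2.33 and ZNF677 from -0.71 to 1.62. The ZNF649 difference was -0.058 with DESeq2 size factors and -0.055 by the Wald test, against 0.0067. Members near 0 CPM rest on few counts.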
